A study of Mus musculus with 8 samples.

Results

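The 10 genes described here encode acute phase and plasma scavenger proteins and were taken by symbol from the 52195 genes of the expression table. They are the serum amyloid A genes Saa1, Saa2 and Saa3, haptoglobin (Hp), hemopexin (Hpx), the orosomucoid genes Orm1 and Orm2, lipocalin 2 (Lcn2), C-reactive protein (Crp) and serum amyloid P component (Apcs). All 10 symbols were found in the table, and all 10 were among the 16328 genes tested. Expression was measured by bulk RNA-seq of polyadenylated RNA in 8 libraries from normal mice, C57BL/6 by the labels and male C57BL/6J at 6 to 10 weeks by the study's methods. There were 2 libraries each of whole liver, lung, kidney and small intestine, from separate mice within a tissue. By the methods all 4 tissues were taken from each mouse, so libraries of different tissues can share a mouse, and which ones do is not given in the sources used here. The samples carry no label of treatment, infection or inflammation, and values are described as basal in that sense. Whole tissue holds many cell types, and fewer cells of a type and less RNA per cell cannot be told apart in bulk samples.

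In the acute phase response, cytokines released at a site of injury or infection, above all interleukin 6 and interleukin 1, act on hepatocytes and raise the secretion of a set of plasma proteins. STAT3, C/EBP and NF-kB factors carry much of this signal to the promoters. Some of these proteins circulate at high levels at rest: haptoglobin binds free haemoglobin, hemopexin binds free haem, and orosomucoids carry lipophilic molecules. Others are low at rest and are raised steeply, as serum amyloid A1 and A2, apolipoproteins of high density lipoprotein, are in the mouse. Crp, a major acute phase protein in humans, is only weakly induced in the mouse, where its relative Apcs takes that role. Saa3 and Lcn2, which binds bacterial siderophores, are also made by macrophages, neutrophils and epithelial cells.

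Most of these genes lie in clusters. On GRCm38, Saa3 (chromosome 7, 46711998 to 46715700, minus strand), Saa1 (46740497 to 46742980, minus strand) and Saa2 (46751790 to 46754313, plus strand) are neighbours, with 8809 bases between Saa1 and Saa2. Orm1 (63344560 to 63348163) and Orm2 (63362449 to 63365878) lie on the plus strand of chromosome 4, and Crp (172698055 to 172833031, plus strand) and Apcs (172893961 to 172895041, minus strand) on chromosome 1. Hpx is elsewhere on chromosome 7 (105591613 to 105600137), Hp on chromosome 8 (109575128 to 109579172) and Lcn2 on chromosome 2 (32384633 to 32388252), all on the minus strand. The copies share sequence. Of all 31-base words in the exons of Saa1, 46.0% also occurred in Saa2, and Orm1 and Orm2 shared 27.5% of theirs. How reads that map to several genes were treated was not given in the sources used here, so the split between Saa1 and Saa2, and between Orm1 and Orm2, is uncertain. Hpx, Lcn2 and Apcs shared none with any other gene.

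The 250 bases before the start of transcription, read 5′ to 3′ from RefSeq (GRCm38.p6), are shown for Saa1 and Saa2, whose levels moved together, for Saa3, which was highest in lung, and for Hpx, the member highest in liver. Capitals mark matches to TTNNGNAA, a form of the C/EBP motif, and to an NF-kB motif (GGG, 5 bases of any kind, then CC), on either strand. In Saa1 a match of each kind lies side by side and forms a single run of capitals. The RefSeq starts of Saa2, Saa3 and Hpx lie inside the GENCODE gene coordinates given above, so the last bases shown overlap these genes.
Saa1 (chr7:46742981-46743230, minus strand): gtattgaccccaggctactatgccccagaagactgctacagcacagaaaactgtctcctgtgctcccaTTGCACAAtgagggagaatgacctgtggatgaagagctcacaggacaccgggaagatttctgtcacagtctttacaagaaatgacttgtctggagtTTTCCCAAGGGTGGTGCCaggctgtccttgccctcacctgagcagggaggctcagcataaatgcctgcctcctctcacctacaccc
Saa2 (chr7:46751583-46751832, plus strand): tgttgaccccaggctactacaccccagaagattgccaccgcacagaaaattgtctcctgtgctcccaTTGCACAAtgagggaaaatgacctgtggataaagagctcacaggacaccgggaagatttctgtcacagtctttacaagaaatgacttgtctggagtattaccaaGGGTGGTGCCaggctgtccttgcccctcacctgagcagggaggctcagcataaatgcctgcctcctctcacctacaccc
Saa3 (chr7:46715677-46715926, minus strand): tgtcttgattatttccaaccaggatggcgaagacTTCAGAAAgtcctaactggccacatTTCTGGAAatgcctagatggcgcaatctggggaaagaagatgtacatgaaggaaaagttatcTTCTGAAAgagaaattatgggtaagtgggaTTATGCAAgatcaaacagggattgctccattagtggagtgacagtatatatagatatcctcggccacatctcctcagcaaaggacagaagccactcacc
Hpx (chr7:105600117-105600366, minus strand): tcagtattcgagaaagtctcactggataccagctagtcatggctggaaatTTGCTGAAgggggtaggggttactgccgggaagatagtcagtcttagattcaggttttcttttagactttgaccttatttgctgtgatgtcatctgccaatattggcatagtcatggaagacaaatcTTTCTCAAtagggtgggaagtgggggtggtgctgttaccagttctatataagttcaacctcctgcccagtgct

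From 250 bases before to 50 after the start, Saa1 and Saa2 were identical at 287 of 301 aligned positions (95.3%), against 50.9% for Saa1 and Saa3. RefSeq promoters were at hand for 8 of the 10 members, all but Hp and Orm1. In the same window, TTNNGNAA occurred in 7 of the 8, against 40.7% of all 32851 promoters, and the stricter TTGCNNAA in 6 of 8, against 10.8%. The NF-kB motif occurred in 4 of the 8 (Crp, Lcn2, Saa1 and Saa2), near its share of 50.8% among all promoters. TTCNNNGAA, the motif of STAT factors, occurred in 1 of the 8 (Apcs), against 8.30%. In Saa3, 4 matches to TTNNGNAA began between positions -216 and -99, counted backwards from the start with -1 as the base before it, and none to the NF-kB motif was found. In Lcn2, whose RefSeq start also lies inside the GENCODE gene, a C/EBP match began at -216 and an NF-kB match at -102. These matches are descriptions of letters, and binding was not measured.

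Values are fragments per kilobase of exon, normalized by library size (FPKM), and tests were made on log2(FPKM + 1), a scale that understates differences of genes with low values. The libraries held between 9399646 and 22132986 reads on genes. The reads behind each value could be recovered, and 3 reads were taken as the least that is told from 0. Replicates spread most in kidney, with a median absolute log2 difference of 0.296 over the genes tested, against 0.141 in liver. Each library carried the markers of its tissue. All 6 hepatocyte markers were called higher in liver, where 6.56% of all genes tested were, all 5 alveolar type 2 and club cell markers in lung, where 33.5% were, and all 5 tubule markers in kidney, where 8.42% were. Lamp3 passed the filter only through lung, and Aqp2, Slc12a1 and Atp6v1g3 only through kidney. The small intestine libraries also held pancreatic acinar transcripts, with a summed FPKM of 2099 and 978 over 5 genes.

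In liver, the 2 scavengers of haem and haemoglobin led. Hpx was at an FPKM of 2404 and 2771 and Hp at 1183 and 1199, ranks 36 to 37 and 56 among all genes. Orm1 followed at 583 and 496 and Crp at 169 and 149. Apcs (39.2 and 37.6) and Orm2 (19.01 and 13.1) were lower, and Saa1 (5.77 and 8.79), Saa2 (1.73 and 3.81), Lcn2 (1.58 and 1.48) and Saa3 (0.586 and 1.004) were at the bottom. Together the 10 genes made up 0.706% and 0.749% of the summed FPKM of the liver libraries, and Hp and Hpx were 81.4% and 84.8% of that. Saa1 and Saa2, among the most inducible genes of the acute phase, stood far below Hpx, Hp and Orm1 in these resting livers.

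The order among genes depends on the length used. The union of all annotated exons is 2478 bases for Saa1 but its principal coding transcript only 609, and the FPKM of Saa2, Saa3, Lcn2 and Crp is lowered in the same way. Per kilobase of the principal transcript, the mean liver level was 2587 for Hpx, 1422 for Hp, 539 for Orm1, 323 for Crp, 38.4 for Apcs, 29.6 for Saa1, 16.1 for Orm2, 10.7 for Saa2, 4.38 for Lcn2 and 3.73 for Saa3. Saa1 then stood above Orm2, in contrast to the order by FPKM. Ratios of a gene between tissues are the same on either length.

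**Figure D1:**
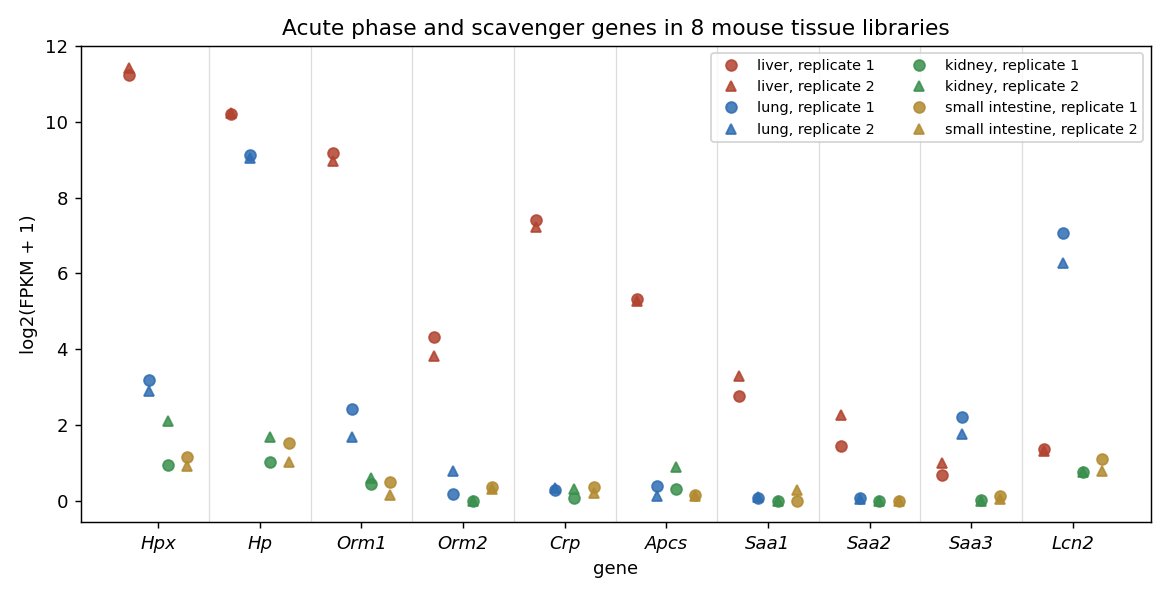
Level of the 10 genes in each library as log2(FPKM + 1). Colours are tissues, circles replicate 1 and triangles replicate 2; 8 genes are highest in both liver libraries, while Lcn2 and Saa3 are highest in both lung libraries and Hp is high in liver and lung.

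Liver was set against the mean of the remaining 3 tissues to ask which of these genes have their basal level chiefly there. A gene was called when its adjusted p was under 0.05 and the log2 difference exceeded 1 in size. Of the 10 genes, 8 were called higher in liver, where 6.56% of all genes tested were, and 1 (Lcn2) was called lower, where 32.7% were. The median difference of the 10 was 4.39 on the log2 scale, against -0.72 over all genes. Saa1, Saa2, Orm2, Crp and Apcs reached an FPKM of 1 in no library outside liver, so these 5 entered the test through liver alone and had to differ. Hp, Hpx and Orm1 passed the filter outside liver as well.

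Among the scavengers, Hpx was 9.46 higher in liver on the log2 scale (SE 0.280, adjusted p = 1.93e-07). Outside liver it was at 8.13 and 6.50 in lung, 0.933 and 3.31 in kidney and 1.21 and 0.884 in small intestine. The lowest liver value was thus far above the highest value elsewhere. Hp was 6.32 higher (SE 0.197, adjusted p = 2.45e-07), with the high values outside liver in lung alone.

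The orosomucoids were unequal. Orm1 was 8.11 higher in liver (SE 0.218, adjusted p = 1.29e-07), from 583 and 496 to between 0.114 and 4.36 in the other 6 libraries. Orm2 was 3.80 higher (SE 0.201, adjusted p = 4.00e-06), with 1 and 7 reads in lung, 0 in kidney and 2 in each small intestine library. The ratio of Orm1 to Orm2 was 30.7 and 37.8 in the liver libraries. In kidney, where Orm2 had no read, liver was at least 79.5-fold higher, taking 3 reads in each library as the floor.

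Crp, a pentraxin that binds phosphocholine on damaged cells and bacteria, was 7.06 higher in liver (SE 0.146, adjusted p = 6.91e-08). It lay between 0.0542 and 0.279 in the other 6 libraries, and its mean there was between 0.0908% and 0.146% of that in liver. The related pentraxin Apcs, a constant part of amyloid deposits, was 4.97 higher (SE 0.183, adjusted p = 5.71e-07). The ratio of Crp to Apcs was 4.32 and 3.97 in the liver libraries. Apcs was at 0.240 and 0.833 in kidney, 1.40% of the liver mean, and its difference between kidney and lung was not called (adjusted p = 0.208).

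Saa1 was 2.95 higher in liver (SE 0.157, adjusted p = 4.00e-06) and Saa2 1.84 higher (SE 0.187, adjusted p = 9.63e-05). Saa1 had 131 and 225 reads and Saa2 40 and 99 reads in liver replicates 1 and 2, so that replicate 2 was higher for each, with ratios of Saa1 to Saa2 of 3.33 and 2.31. The counting intervals (95%, exact Poisson) of Saa1, 4.82 to 6.85 and 7.68 to 10.0, did not overlap; they cover counting error only. Neither gene had a read in kidney, where liver was at least 115-fold higher for Saa1 and at least 44.6-fold for Saa2, at the floor of 3 reads in each library. In small intestine Saa2 had no read, and Saa1 had 0 reads in replicate 1 and 6 in replicate 2, an FPKM of 0.214. In lung each had 1 or 2 reads per library, below the floor. With a pseudocount of 5 the difference of Saa2 was 0.62 and no longer called.

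The liver level of Saa3 was 0.586 and 1.004 (14 and 27 reads), and its difference from the mean of the other tissues, 0.14 (SE 0.148), was not called (adjusted p = 0.408). With a pseudocount of 0.1 it was 1.22 and called. Against kidney and small intestine alone, Saa3 was 0.82 and 0.75 higher in liver (adjusted p = 0.00909 and 0.00910), under the limit on size. These differences were called with a pseudocount of 0.1 (3.003 and 2.48), median-of-ratios scaling (1.20 and 1.14), quantile normalization (1.41 and 1.34) and limma-voom (5.52 and 3.48). Lcn2 was 1.45 lower in liver than the mean of the others (log2 difference -1.45, SE 0.219, adjusted p = 0.000662), while liver minus kidney (0.59, adjusted p = 0.128) and liver minus small intestine (0.40, adjusted p = 0.235) were not called. Liver minus kidney was called for Lcn2 with a pseudocount of 0.1 (1.06) and with median-of-ratios scaling (1.002), and liver minus small intestine with quantile normalization (1.01). After median-of-ratios scaling the difference of Lcn2 from the mean of the 3 tissues was -0.66 and was not called. In an exact two-sided permutation test over all choices of 2 of the 8 libraries, Hp, Hpx and Orm1 each gave p = 0.0357, the smallest this design allows. The 5 genes that reached the filter in liver alone had that p by construction. The test treats the 8 libraries as exchangeable, although they come as 2 per tissue and can share a mouse.

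**Figure D2:**
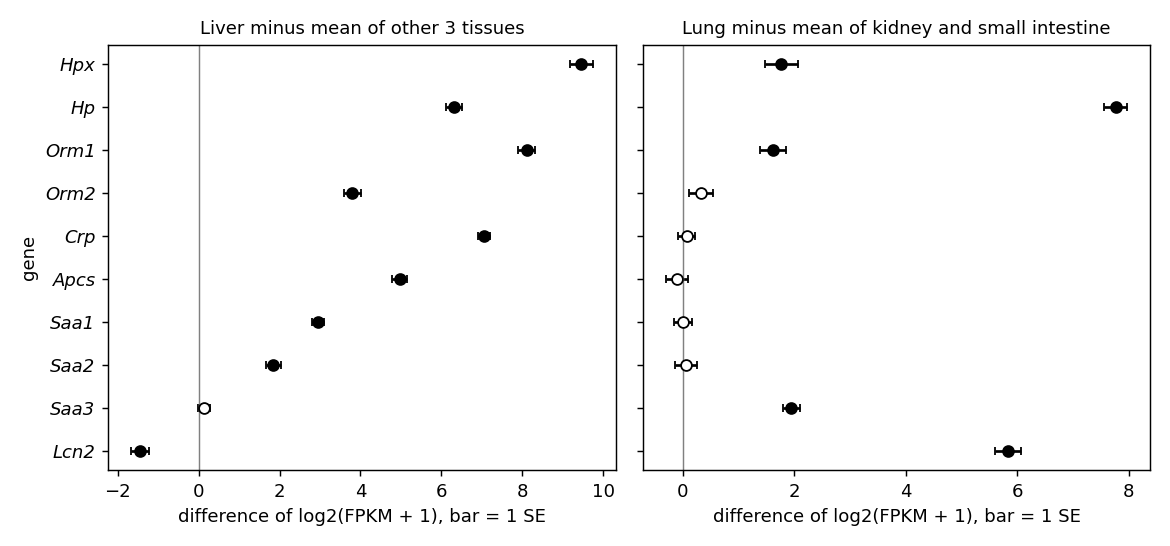
Log2 differences of the 10 genes, with bars of 1 SE from limma. Left, liver minus the mean of the other 3 tissues; right, lung minus the mean of kidney and small intestine; filled points were called. Lcn2 is lower in liver (-1.45), and Hp (7.77) and Lcn2 (5.83) stand apart in lung.

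The extrahepatic tissues were then compared among themselves. In lung against the mean of kidney and small intestine, 5 of the 10 genes were called higher (Saa3, Hp, Hpx, Orm1 and Lcn2), where 33.5% of all genes tested were, and none lower. All 10 had a median difference of 0.97 against 0.68 over all genes, so lung was higher for genes in general. Median-of-ratios scaling, which sets that median to -0.01, left 3 called (Saa3, Hp and Lcn2), where 2328 of all 16328 genes tested were called higher. Hpx then stood at 0.96 (adjusted p = 0.0686) and missed both limits, while Orm1, at 0.98 (adjusted p = 0.00971), missed only the limit on size.

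Of the 8 members highest in liver, Hp had the largest share of its liver level in lung. It was at 556 and 526 in lung (8725 and 10500 reads), ranks 66 to 72 among all genes. In kidney it was at 1.05 and 2.19 and in small intestine at 1.86 and 1.04. Lung was 7.77 higher on the log2 scale than the mean of kidney and small intestine (SE 0.209, adjusted p = 3.81e-07), and the groups were far apart. Its lung mean was 45.5% of the liver mean (541 ± 21.4 against 1191 ± 11.4, SD, n = 2), and liver was 1.14 higher than lung (SE 0.241, adjusted p = 0.00294). In that comparison 8 of the 10 members were called higher in liver, where 7.21% of all genes were, and 2 lower, where 55.5% were. Of the 8, the 5 that passed the filter through liver alone had to be higher there. The size of the Hp difference depended on scaling. It was 2.79 after median-of-ratios scaling, which put lung at 14.4% of liver, and 0.32 after quantile normalization, where it was not called (adjusted p = 0.416).

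The share of Hp in lung was set against markers of hepatocytes. The 6 hepatocyte markers (Alb, Ttr, Apob, Cps1, Cyp2e1 and Serpina1c) were between 0.215% and 0.780% of their liver mean in lung replicate 1 and between 0.122% and 0.456% in replicate 2, far below the 46.7% and 44.2% of Hp. Hpx, at 0.314% and 0.251%, was within the range of the hepatocyte markers in both lung libraries. Orm1, at 0.809% and 0.404%, was just above that range in replicate 1 and within it in replicate 2. Crp, at 0.131% and 0.161%, was below the range in the first and within it in the second. Orm2 (0.823% and 4.52%, from 1 and 7 reads) and Saa2 (1.47% and 1.15%, from 1 read each) were above it in both. Saa1 (0.568% and 0.892%, from 1 and 2 reads) was above it in replicate 2 alone, and Apcs (0.824% and 0.216%, from 3 and 1 reads) in replicate 1 alone. The part of liver RNA in the low lung values of these genes was not tested. In small intestine Apob was at 56.5% and 70.4% of liver and Cps1 at 17.2% and 15.4%, and in kidney Cyp2e1 was at 22.5% and 18.3%, genes that are known to be expressed in those tissues.

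**Figure D3:**
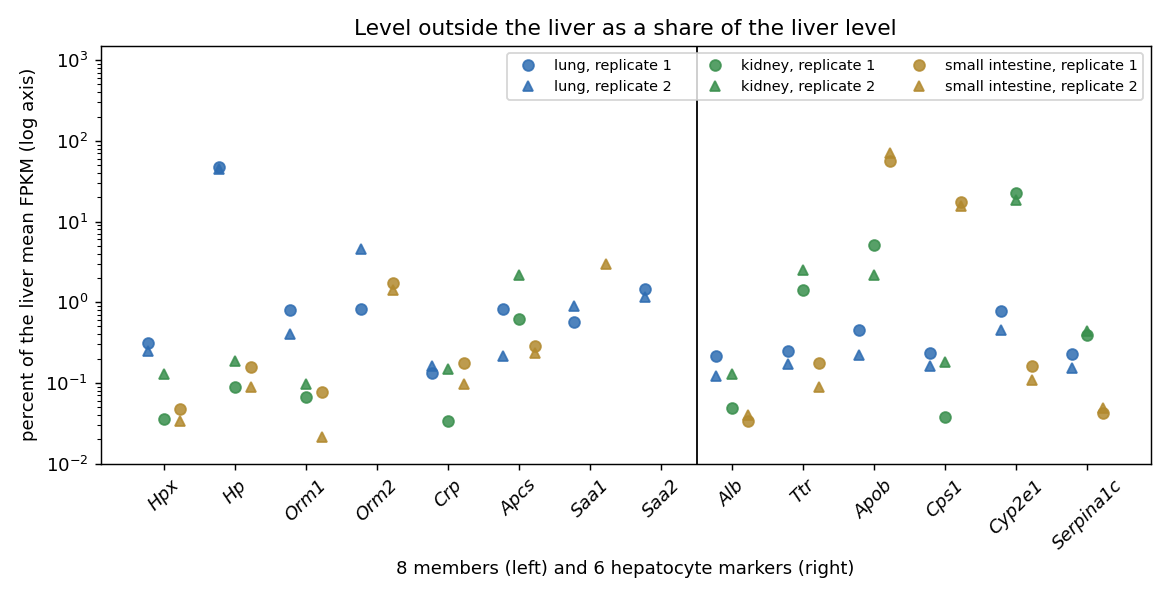
FPKM in lung, kidney and small intestine libraries as a percent of the liver mean, on a log axis, for 8 members and 6 hepatocyte markers; values of 0 are not drawn. Hp in lung (46.7% and 44.2%) is the only one of these members above 5% of liver outside liver.

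Lcn2 was highest in lung, at 133 and 76.4 (3402 and 2492 reads). It was at 1.58 and 1.48 in liver, 0.676 and 0.683 in kidney and 1.14 and 0.707 in small intestine, so the lung values did not overlap with any other. Lung was 5.83 higher than the mean of kidney and small intestine (SE 0.232, adjusted p = 1.05e-06), and liver was 5.33 lower than lung (log2 difference -5.33, SE 0.268, adjusted p = 1.82e-06). The lung mean was 68.4 times the liver mean as deposited and 21.7 times after median-of-ratios scaling. Per kilobase of the principal transcript, Lcn2 in lung was at 299.96 and Hp at 646.

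Saa3 was the serum amyloid gene of lung. It was at 3.65 and 2.41 there (93 and 78 reads), against 0.0179 and 0 in kidney and 0.0820 and 0.0339 in small intestine, which are at most 2 reads each. Lung was 1.95 higher than the mean of those tissues (SE 0.157, adjusted p = 2.14e-05). Outside lung Saa3 reached an FPKM of 1 only in liver replicate 2, so it passed the filter through lung and had to be higher there than in kidney and small intestine. It was also 1.16 higher than liver on the deposited scale (liver minus lung -1.16, SE 0.181, adjusted p = 0.000597), and the lung and liver libraries did not overlap. This last call was lost with median-of-ratios scaling (-0.18, adjusted p = 0.405), with a pseudocount of 5 (-0.47), without liver replicate 1 (-0.99) and without lung replicate 1 (-0.94), and the sign turned under quantile normalization (0.10).

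Since neutrophils and macrophages are known to make Lcn2 and Saa3, markers of the cell types of lung were read beside them. All 8 neutrophil markers were called higher in lung than in kidney and small intestine, as were 5 of 6 macrophage, 6 of 6 fibroblast and mesothelial, 5 of 5 alveolar type 2 and club cell, and 3 of 4 tested adipocyte markers, where 33.5% of all genes were. Of the 8 neutrophil markers, 7 (all but Retnlg) passed the filter only through lung and so had to be higher there, as did Lamp3 of the alveolar and Retn of the adipocyte list. The 2 lung libraries differed in neutrophil transcripts. The summed FPKM of the 8 markers was 107.6 in replicate 1 and 426.4 in replicate 2, with S100a9 at 36.3 and 214, S100a8 at 23.6 and 110 and Ngp at 2.01 and 31.4. Lcn2 differed the other way, 1.74-fold higher in replicate 1, as did Saa3 (1.52-fold) and Orm1 (4.36 against 2.18, from 33 and 21 reads), while Hp was nearly equal (1.06-fold). Of the neutrophil list, Ltf, which airway epithelium also makes, was higher in replicate 1, at 38.9 and 22.2. The adipocyte sum was 130.7 and 77.3 and the macrophage sum 92.2 and 80.1. The 6 hepatocyte markers were all higher in replicate 1, with a sum of 105.9 and 62.6 and Alb at 69.0 and 39.0. With 2 libraries these ratios are descriptions, and the part of each cell type in the lung levels was not tested.

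**Figure D4:**
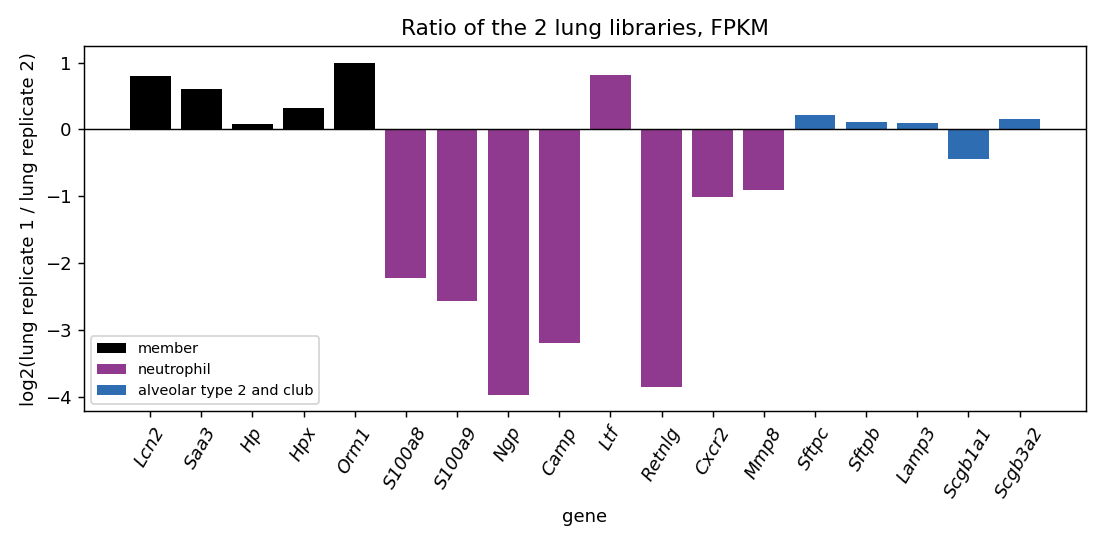
Log2 ratio of FPKM in lung replicate 1 over replicate 2 for 5 members (black), 8 neutrophil markers (purple) and 5 alveolar type 2 and club cell markers (blue), with no error since each bar is 1 library against 1. Lcn2 lies above 0 (1.74-fold) while 7 of the 8 neutrophil markers lie below it.

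Hpx and Orm1 were called in lung at low levels, 1.77 higher for Hpx (SE 0.297, adjusted p = 0.00115) and 1.62 for Orm1 (SE 0.231, adjusted p = 0.000490). Orm2, Crp, Apcs, Saa1 and Saa2 were not called in lung, with differences between -0.11 and 0.32 on the log2 scale.

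Kidney and small intestine held little of any member. In kidney against the mean of lung and small intestine, 3 of the 10 genes were called lower (Saa3 by -1.02, Hp by -3.82 and Lcn2 by -3.05 on the log2 scale), where 28.6% of all genes were. Saa3 was not called there with a pseudocount of 5, with any of the 3 other scalings or without lung replicate 1, and it was not tested under the filter on mean FPKM, which each left Hp and Lcn2. In small intestine against the mean of lung and kidney, 3 were called lower (Hp -3.94, Hpx -1.26 and Lcn2 -2.77), where 16.5% of all genes were. Saa3 (-0.92) and Orm1 (-0.96) missed only the limit on size there, and Hpx was not called with a pseudocount of 5, median-of-ratios scaling, quantile normalization or limma-voom, nor without kidney replicate 2 or small intestine replicate 2. None was called higher in either tissue. Between kidney and small intestine themselves no member was called, where 29.5% of all genes were. The highest member in any of these 4 libraries was Hpx in kidney replicate 2, at 3.31 and 86 reads. The 10 genes summed to an FPKM between 3.33 and 7.78 there, against 615 and 706 in lung and 4407 and 4680 in liver.

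In the order of tissue means, liver was first for 8 genes and lung for Saa3 and Lcn2. Lung came second for Saa2, Hp, Hpx, Orm1, Orm2 and Crp, small intestine for Saa1 and kidney for Apcs. Of the 30 pairs of neighbours in these orders, 13 differed by a call. The pairs were set by the same means, and the share of such steps over all genes was not computed, so these counts are descriptions. The top step was called for all 10 genes on the deposited scale. For Saa3 it was lost with median-of-ratios scaling, with a pseudocount of 5 and without liver or lung replicate 1, and its sign turned with quantile normalization, and for Hp it was lost with quantile normalization. The next step down was called for Hp, Hpx and Orm1, and the lowest step for no gene. In the pairwise comparisons, 8 members were called higher in liver than in kidney, where 6.90% of all genes were, and 8 higher in liver than in small intestine, where 7.89% were. Of these 8, the 5 that passed the filter through liver alone (Saa1, Saa2, Orm2, Crp and Apcs) had to be higher there. In lung 5 were higher than in kidney, where 41.4% of all genes were, and 5 higher than in small intestine, where 30.6% were. Saa3 of these passed the filter through lung alone and had to be higher there. These comparisons share libraries and are not independent.

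Other acute phase and plasma protein genes were read from a list of 14. All 14 were called higher in liver, where 6.56% of all genes were, and 7 were called higher and 1 lower in lung than in kidney and small intestine, where 33.5% and 8.95% were. Saa4 and Itih3 passed the filter only through liver. The fibrinogen chains Fga, Fgb and Fgg, which form clots, were at 0.165%, 0.157% and 0.170% of liver in lung, below the 0.283% of Hpx. Ambp, the precursor of a protease inhibitor and of alpha-1-microglobulin, was at 1279.6 and 1144 in liver and at 2.62 and 1.71 in lung. Of the 14, 6 had a lung mean above 5% of liver, namely Lbp (92.0%), Orm3 (66.5%) and Serpina3n (66.2%), all above the 45.5% of Hp, and Cp (30.4%), C3 (16.9%) and Itih4 (5.13%). The limit of 5% was set with their values in view. After median-of-ratios scaling the shares fell to 29.0% for Lbp, 20.5% for Orm3, 20.7% for Serpina3n, 9.62% for Cp and 5.35% for C3, and Itih4 was at 1.62%, which left 5 above the limit. Lbp, which hands bacterial lipopolysaccharide to CD14, was at 16.0 and 11.8 in lung and 16.7 and 13.7 in liver. C3, the central complement protein, was at 116 and 115 in lung and 692 and 669 in liver. Orm3 rests on few reads, 21 and 11 in liver and 10 and 15 in lung. In kidney none of the 14 was above 5%, and in small intestine only Orm3 was, from 1 read in each library, below the floor of 3. All 7 negative acute phase genes, which fall in inflammation, were called higher in liver, where 6.56% of all genes were, and Serpina6 of these passed the filter only through liver. Alb led at 34646 and 29371, although Apoa1 was at 5166 and 5185 in small intestine against 3172 and 2572 in liver.

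Of 13 genes for inducing cytokines and their receptors, 8 passed the filter, of which 2 were called higher in liver and all 8 higher in lung, against 6.56% and 33.5% of all genes. Tnf and Osmr of these passed the filter only through lung. Il6 was at most 0.0994 in any library and Il22 was listed at 0 in all. The shared receptor chain Il6st was at 6.11 and 5.56 in liver and 18.4 and 19.5 in lung, and Lifr, a partner of it, at 18.8 and 23.0 in liver and 7.91 and 9.24 in lung. Of 10 transcription and feedback factors, 3 were called higher and 4 lower in liver, and 8 higher and 2 lower in lung. Of all genes, 6.56% were higher and 32.7% lower in liver, and 33.5% higher and 8.95% lower in lung. Cebpa was at 67.1 and 75.3 in liver and 40.8 and 48.1 in lung, but at most 15.8 in kidney and small intestine. Cebpb was at 22.4 and 21.3 in liver, 31.7 and 47.5 in lung and at most 7.24 elsewhere. Hnf4a, a factor of liver, kidney and gut epithelium, was at 61.5 and 60.3 in liver and only 0.764 and 0.350 in lung.

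Of 11 genes for receptors and clearance of haem, haemoglobin and siderophores, 4 were called higher and 4 lower in liver, and 6 higher and 2 lower in lung, with the same shares of all genes. Fpr2 of these passed the filter only through lung. Hmox1, which breaks down haem, was at 24.9 and 18.7 in lung and 6.61 and 8.19 in liver. Lrp2, which takes up filtered proteins in the proximal tubule and binds Lcn2, was at 65.5 and 26.1 in kidney and at most 2.08 elsewhere.

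Across the 8 libraries, the genes most like each member by Pearson correlation of log2(FPKM + 1) were found over all genes tested. These are descriptions, since 8 libraries of 4 tissues share their tissue differences. For Hp they were Steap4, Vnn3 and Sntb1 (0.996 for the first and 0.995 for the others). For Lcn2 they were Adgb, Fhad1 and Cfap77 (0.999 for Adgb), and for Saa3 Fpr1, Clec12a and Sept10 (0.992 for Fpr1). For Hpx they were Ahsg, Mup20 and Asgr1, for Orm1 Serpind1, Mat1a and Slc38a4, for Crp Abcb11, Cyp2a22 and 1300017J02Rik, and for Saa2 Cyp7a1, Gm11967 and Gm16551. Saa1 was most like Sdr9c7, Orm2 most like Rarres1 and Apcs most like Gm38832. Among the members, Saa1 and Saa2 correlated at 0.987 and Crp and Apcs at 0.994, while Saa3 correlated at 0.938 with Lcn2 and 0.0847 with Saa1.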

How the data were processed

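Gene expression of liver, lung, kidney and small intestine was measured by bulk RNA-seq, with 2 libraries per tissue; the labels gave each library's tissue and replicate number. The authors selected reads by index with bbduk, mapped them with STAR 2.5.3a to the Ensembl release 75 mouse genome (GRCm38) and deposited FPKM values computed by DESeq2's fpkm function. The read counter, its strand setting and its handling of multi-mapping reads were not given in the sources used here. By the paper, the replicates of a tissue came from separate mice and each mouse gave all 4 tissues; the fit treats the libraries as independent.

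Members were found by symbol. Of the 52195 symbols, 51844 (99.3%) matched 1 gene of GENCODE M21, which gave coordinates and exon lengths. Reads were recovered from FPKM and exon length; 94.5% to 96.1% of low values per library were whole within 0.02 reads. Depth, between 9399646 and 22132986 reads on genes, sets the floor of 3 reads, and intervals (95%, exact Poisson) cover counting error only. Values were tested as log2(FPKM + 1) with limma 3.58.1 (lmFit, eBayes with a trend) in R 4.3.3, all 8 libraries in a single fit without covariates, for the 16328 genes that reached an FPKM of 1 in 2 or more libraries, with Benjamini-Hochberg adjustment over all of them and limits of 0.05 on the adjusted p and 1 on the log2 difference. An exact permutation test over libraries was run for single genes. The limma step was tested on simulated data in which few genes changed and the tissues otherwise shared a profile, unlike these libraries, so the test does not cover the dependence on scaling. Python 3.11.15 with numpy 2.4.6, pandas 2.3.3, scipy 1.17.1, Biopython 1.88 and matplotlib 3.10.9 gave the descriptive values and figures. Promoters were from RefSeq.

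All 10 members are named. Of each list, counts are given with up to 4 genes of the highest mean FPKM and genes a result turns on; for each member, up to 3 genes of the highest correlation. The members, lists and tests were chosen with earlier results of these data known. Alternatives changed the pseudocount, the filter, the scaling, the trend, a block, the test and the libraries included. Protein sequences and the single-cell data of the study were not used here.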

Additional observations from a re-analysis of the deposited data

How the results depend on the processing

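The count of members called higher in liver was between 7 and 9 over all alternatives, against 8 as reported. The count in lung, 5 as reported, was 2 with a pseudocount of 5, 3 with median-of-ratios scaling and 3 with quantile normalization, and rose to 7 with limma-voom. The count called lower in kidney, 3 as reported, was 5 with limma-voom on recovered reads, 4 with a pseudocount of 0.1, and 2 under 5 others (a pseudocount of 5, the filter on mean FPKM, and the 3 other scalings). The count called lower in small intestine, 3 as reported, was 5 with a pseudocount of 0.1 and 2 with a pseudocount of 5, median-of-ratios scaling or quantile normalization. Leaving out each library in turn gave 2 to 5 in small intestine, the 5 being without lung replicate 2 (Saa3 and Orm1 added), and 2 to 4 in kidney. Of 178 values of single members under alternatives, 173 in liver and 169 in lung kept their side of the thresholds. A turned sign was not counted for members without a call in the main fit. Signs did turn among these, as for Saa3 in liver (lowest -0.03) and Crp in lung (lowest -0.31). Saa3 was at 2.38 and called in liver with limma-voom, Lcn2 at -0.88 and not called with quantile normalization, and in lung Hpx (0.91), Orm1 (0.62) and Saa3 (0.67) were not called with a pseudocount of 5. Hpx (0.96) and Orm1 (0.79) were not called in lung with quantile normalization, while limma-voom called Saa2 (1.93) and Orm2 (1.97) in lung. These 2 calls rest on 1 read in each lung library for Saa2, below the floor of 3, and on 1 and 7 reads for Orm2. The difference of Saa3 between liver and lung turned to 0.10 with quantile normalization. Hp in liver ranged from 5.39 to 7.34 and Lcn2 in lung from 4.19 to 6.97. The cause was not tested for these changes beyond the construction of each alternative.

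The count of neighbouring tissues that differed by a call, 13 as reported, was between 9 (pseudocount of 5) and 16 (limma-voom), and 11 with median-of-ratios scaling or quantile normalization. With a replicate block the counts were 8, 5, 3 and 3, and 13 pairs of neighbours, and no call of a member changed between fits. Libraries of different tissues can share a mouse, but no source ties a mouse to a replicate number. The correlation of replicate differences between tissues was between -0.217 and 0.0528 over the 6 pairs of tissues. Neither these correlations nor the block can decide the question, since a replicate number may stand for different mice in different tissues. The fit treats the 8 libraries as independent. Depth limits Saa1, Saa2 and Orm2 outside liver and Saa3 in kidney and small intestine, where most values rest on fewer than 3 reads. The exact test was not run with a library left out.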
